A study of Mus musculus with 17 samples.

Results

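Antigen presentation genes of the major histocompatibility complex (MHC) class II were followed in the hippocampus of young and old mice. They were chosen by name and comprise 7 genes: Cd74, H2-Aa, H2-Ab1, H2-Eb1, Ciita, H2-DMa and H2-DMb1. All 7 were found among the 38355 gene identifiers of the count files, each has a count above 0 in all 17 libraries, and all passed the low count filter in both comparisons. The tissue was hand-dissected hippocampus of untreated wild type C57BL/6J mice, and RNA with a polyA tail was sequenced in 2 separate experiments. The first compared 3-month-old mice (3M, 5 libraries) with 24-month-old mice (24M, 6 libraries) by single-end reads, and the second compared 3-month-old mice (3M, 3 libraries) with 29-month-old mice (29M, 3 libraries) by paired-end reads. Age and kind of read therefore change together between the experiments, and each aged group was compared with its own 3M group. The labels do not say that each library is a different mouse, so p-values measure the spread between these samples, and in RNA of whole tissue more cells of a type and more RNA per cell cannot be told apart.

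MHC class II molecules are heterodimers of an alpha and a beta chain that show peptides from internalised proteins to CD4+ T cells. The invariant chain, encoded by Cd74, fills the peptide groove during transport, is cut down by proteases such as cathepsin S, and its last fragment is exchanged for antigen peptide by the H2-DM dimer, which H2-DO restrains. Class II genes are switched on by CIITA, a coactivator induced by interferon gamma that joins RFX, CREB and NF-Y proteins sitting on the X and Y boxes of their promoters. B cells, dendritic cells and macrophages carry class II constitutively, while resting microglia of the healthy brain carry little.

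H2-Aa (ENSMUSG00000036594, chr17:34282744-34287823, minus strand), H2-Ab1 (ENSMUSG00000073421, chr17:34257689-34269419), H2-Eb1 (ENSMUSG00000060586, chr17:34305867-34316674), H2-DMa (ENSMUSG00000037649, chr17:34119541-34139101) and H2-DMb1 (ENSMUSG00000079547, chr17:34153072-34160230) lie together in the class II region of chromosome 17 (GRCm38, GENCODE). Ciita (ENSMUSG00000022504) lies at chr16:10480059-10528418. All members are protein-coding. RefSeq promoter windows, from 250 bases before to 50 after a gene's start on GRCm38.p6, were at hand for 4 of the 7 members and for H2-DMb2, H2-Oa, H2-Ob and H2-Eb2. Stretches from position -110 to -11 (position 1 is the first transcribed base) are shown for H2-Aa and H2-Eb1, a called and an uncalled chain gene. They are also shown for H2-Ob, whose levels are given further on, and for H2-DMa, whose windows at hand held neither motif. Capitals mark an X box core (CTNGNAAC) and a Y box core (TGATTGG), both searched on both strands.
H2-Aa (chr17:34287834-34287933, minus strand): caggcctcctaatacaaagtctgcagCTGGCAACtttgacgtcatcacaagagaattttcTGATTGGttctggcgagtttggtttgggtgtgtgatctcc
H2-Eb1 (chr17:34305757-34305856, plus strand): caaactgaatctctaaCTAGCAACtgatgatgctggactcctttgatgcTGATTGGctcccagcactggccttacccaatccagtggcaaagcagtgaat
H2-Ob (chr17:34238795-34238894, plus strand): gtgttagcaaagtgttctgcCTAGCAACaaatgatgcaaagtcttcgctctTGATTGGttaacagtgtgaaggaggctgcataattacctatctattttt
H2-DMa (chr17:34122722-34122821, plus strand): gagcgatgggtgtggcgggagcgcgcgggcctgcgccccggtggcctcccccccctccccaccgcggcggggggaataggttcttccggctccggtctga

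In H2-Aa the X core began at -84 and the Y core at -50, 34 bases apart. The same order was found in H2-Eb1 (-94 and -61, 33 bases apart), in H2-DMb1 (CTAGTAAC at -97 and the Y core at -63, 34 bases apart) and in H2-Ob (-90 and -59, 31 bases apart). Neither window of H2-DMa held either core. Both windows start inside the annotated span of H2-DMa, and the printed stretch lies just ahead of the start of Brd2 (34122634, minus strand). Other starts of H2-DMa were not searched. H2-DMb2 (-92) and H2-Oa (-45) held a Y core only, and H2-Eb2 held both cores in the other order. Across 32544 different promoter windows, 13.2% held the X core and 7.8% the Y core on either strand. An X core starting 29 to 36 bases ahead of a Y core, on the gene's strand and before its start, was found in 8 windows (0.025%): those of H2-Aa, H2-Eb1, H2-DMb1 and H2-Ob, that of BC051142, a gene at the edge of the class II region, 2 windows of Mark3 and 1 of 1700048F04Rik. Letters and spacing were chosen after the class II windows had been read, so this count describes them, and a match in letters is not a site shown to be bound.

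Each library held 9213474 to 28438296 reads counted in genes. Between 11 (Ciita) and 340 (Cd74) of them fell on a member, which limits the precision of single values. The libraries of 24M replicates 1 and 4 differed by less than counting noise and were counted as 1 sample, so that n was 5 against 5 and 3 against 3. Values below are CPM, counts scaled to a common library size with TMM factors, and fold changes are on the log2 scale, aged minus 3M. Genes are named as called where edgeR's quasi-likelihood fit gave a Benjamini-Hochberg adjusted p no larger than 0.05, adjusted over every gene tested, and the log2 fold change was 0.5 or more in either direction. In 3M replicate 2 of the single-end experiment 4 of the members lay far above the other young samples. Over all genes that library was not exceptional: it was at least 1.5-fold above every other young single-end library in 84 of 14450 genes, beside 7 to 102 genes for each of the other 4. Its 84 genes include H2-Q6, Gbp4, Cd52, Gbp2, Nlrc5, Iigp1 and Igtp, several of these known as interferon-induced GTPases. Effects of the 4 members at 24M are given with and without that library. It was singled out by its class II levels, as 29M replicate 2 was by its low ones, so values without either library are a description of how much rests on it and stand beside the values without each other sample.

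**Figure D1:**
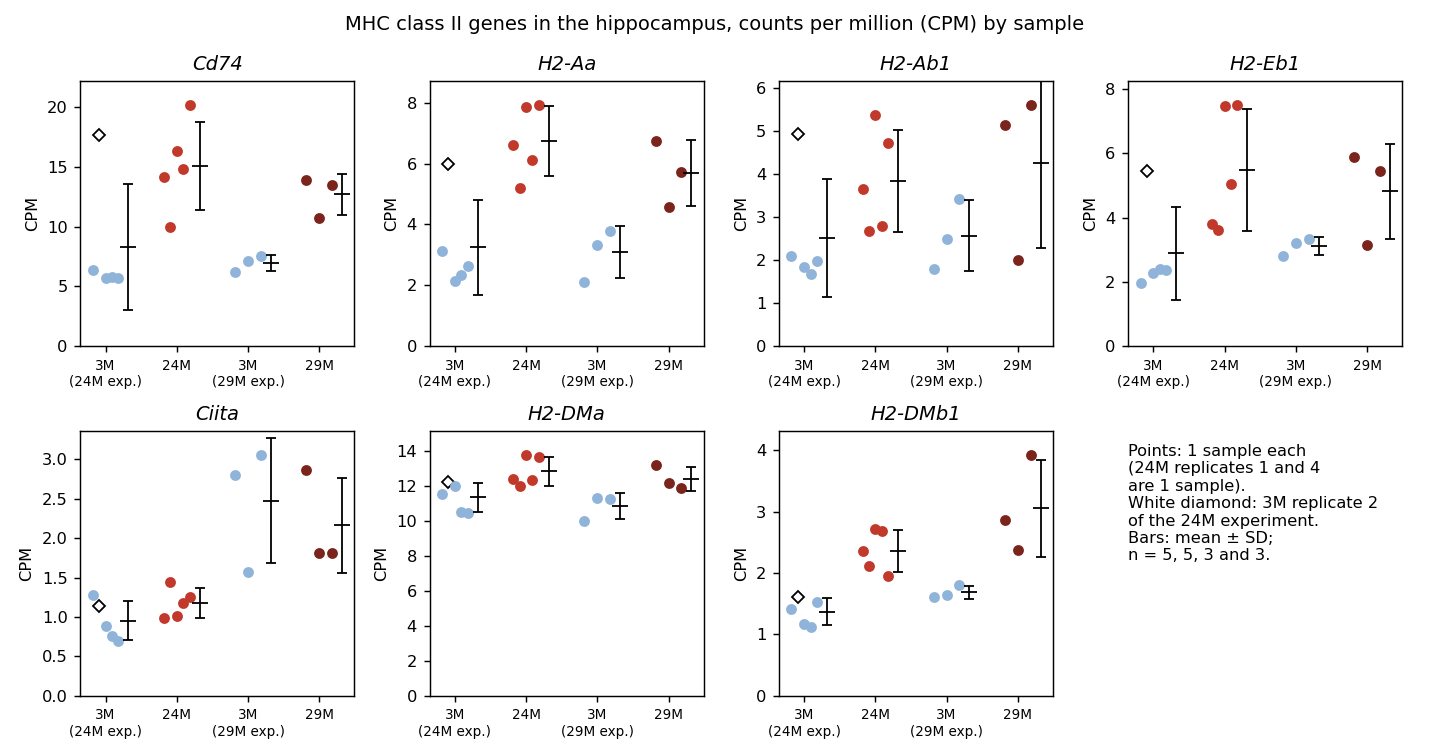
Level of each of the 7 MHC class II genes in CPM (y axes, linear, from 0) by group, 1 point a sample, with the mean and SD beside the points. Cd74, H2-Aa, H2-Ab1 and H2-Eb1 of single-end 3M replicate 2 (white diamond, 17.7, 5.97, 4.94 and 5.46 CPM) lie among the 24M samples, while the other single-end 3M samples lie below all 24M samples in these 4 genes.

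Cd74 (ENSMUSG00000024610, chromosome 18), the invariant chain, had a higher mean at both old ages, and this difference was called at 29M. In the single-end experiment it stood at 6.37, 17.7, 5.69, 5.81 and 5.73 CPM in 3M replicates 1 to 5, and at 20.2 (replicates 1 and 4 together), 14.1, 9.9997, 16.3 and 14.8 CPM in 24M replicates 1 and 4, 2, 3, 5 and 6. Replicate 2 of 3M lay above 4 of the 5 old samples, and the other 4 young samples lay below every old one. The means were 8.25 ± 5.27 (SD, n = 5) and 15.1 ± 3.68 CPM (SD, n = 5), and the log2 fold change of 0.88 (SE 0.30) was not called by edgeR (adjusted p = 0.0927). Without 3M replicate 2 it was 1.34 with an edgeR adjusted p of 0.00134, and without any other sample it was between 0.75 and 0.9995 (edgeR adjusted p from 0.0977 to 0.197). In the paired-end experiment Cd74 stood at 6.198, 7.13 and 7.55 CPM in 3M and at 13.9, 10.7 and 13.5 CPM in 29M. These groups did not overlap, and Cd74 was called higher by edgeR with a log2 fold change of 0.88 (SE 0.13, adjusted p = 0.00225). It stayed called when any of the 6 libraries was left out, with log2 fold changes from 0.80 to 0.97. In 1 fit of all 4 groups, which share 1 estimate of the spread, the call was lost (0.87, edgeR adjusted p = 0.456).

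H2-Aa encodes the alpha chain of the I-A molecule. Its young single-end levels were 3.14, 5.97, 2.15, 2.34 and 2.62 CPM (mean 3.25 ± 1.57, SD, n = 5), again with replicate 2 as the highest. The 24M levels were 7.92, 6.60, 5.21, 7.86 and 6.13 CPM (mean 6.74 ± 1.16, SD, n = 5), and 4 of the 5 exceeded every 3M sample. H2-Aa was called higher at 24M by edgeR (log2 fold change 1.07, SE 0.25, adjusted p = 0.0287), and reached 1.39 (adjusted p = 0.00101) without 3M replicate 2. The call was lost, with log2 fold changes from 0.94 to 1.08 and edgeR adjusted p-values from 0.0501 to 0.0729, when 3M replicate 1, 3 or 4, 24M replicate 2 or the joined 24M replicates 1 and 4 were left out. At 29M the levels were 6.73, 4.57 and 5.74 CPM against 2.12, 3.34 and 3.78 CPM in 3M, with no overlap. H2-Aa was called higher there too (log2 fold change 0.88, SE 0.22, edgeR adjusted p = 0.0444). That call held without 29M replicate 2 (adjusted p = 0.0275) and was lost without any other single library (adjusted p from 0.0647 to 0.221 by edgeR), in DESeq2 (adjusted p = 0.0599) and in 1 fit of all 4 groups (edgeR adjusted p = 0.348).

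H2-Ab1, the beta chain that pairs with the product of H2-Aa, was not called at either age. It read 2.09, 4.94, 1.84, 1.68 and 1.98 CPM in the young single-end samples and 4.73, 3.64, 2.68, 5.37 and 2.80 CPM at 24M. Only 3M replicate 2 overlapped the old samples. The log2 fold change was 0.65 (SE 0.30, edgeR adjusted p = 0.191), and 1.02 without that library (edgeR adjusted p = 0.0280). Leaving out each other sample gave 0.48 (24M replicate 5) to 0.76 (24M replicate 3), none of them called. At 29M it read 5.13, 1.997 and 5.60 CPM against 1.78, 2.49 and 3.42 CPM, so that 29M replicate 2 lay inside the young range. The log2 fold change was 0.77 (SE 0.32, edgeR adjusted p = 0.242), and 1.07 with an adjusted p of 0.0278 without 29M replicate 2. Without each other library it ran from 0.51 (29M replicate 3, edgeR adjusted p = 0.585) to 0.99 (3M replicate 3, edgeR adjusted p = 0.215).

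H2-Eb1, the beta chain of the I-E molecule, had a similar course. Young single-end samples held 1.955, 5.46, 2.26, 2.39 and 2.37 CPM, and 24M samples 7.51, 3.79, 3.61, 7.47 and 5.05 CPM. All old samples were above 4 of the 5 young ones. Its log2 fold change of 0.94 (SE 0.30) missed the threshold in edgeR (adjusted p = 0.0717), and was 1.28 (adjusted p = 0.0138) without 3M replicate 2 and 0.79 to 1.07, not called, without each other sample. At 29M the levels were 5.89, 3.14 and 5.45 CPM against 2.80, 3.21 and 3.33 CPM, with 29M replicate 2 inside the young range, and the log2 fold change was 0.65 (SE 0.22, edgeR adjusted p = 0.154) or, without 29M replicate 2, 0.86 (adjusted p = 0.0211). Without each other library it ran from 0.49 (29M replicate 1, edgeR adjusted p = 0.453) to 0.69 (3M replicate 3, edgeR adjusted p = 0.231). The alpha chain of I-E was listed at 0 counts in all 17 libraries under H2-Ea-ps, its pseudogene name. C57BL/6 mice are known to carry a deletion that silences this gene. A count of 0 allows up to 0.0274 CPM over the young single-end libraries and up to 0.0827 CPM over those of 29M (3 counts over the group, counting error only).

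H2-DMb1, the beta chain of the peptide exchange factor H2-DM, separated the ages without 3M replicate 2 standing out. The 3M samples held 1.41, 1.61, 1.17, 1.121 and 1.53 CPM and the 24M samples 1.95, 2.35, 2.11, 2.71 and 2.69 CPM. No old sample overlapped a young one, which rests on joining 24M replicates 1 and 4. Read apart, the library of replicate 1 held 2.43 CPM and that of replicate 4 1.56 CPM, below 3M replicate 2. H2-DMb1 was called higher by edgeR (log2 fold change 0.78, SE 0.17, adjusted p = 0.0220). Leaving out 24M replicate 2 ended the call (0.79, edgeR adjusted p = 0.0614). At 29M the levels of 2.86, 2.38 and 3.92 CPM also lay above those of 3M (1.61, 1.64 and 1.80 CPM). There the log2 fold change was 0.88 (SE 0.24), just outside the threshold (edgeR adjusted p = 0.0725). H2-DMb1 shares 22.7% of its 50-base stretches with its neighbour H2-DMb2, and 11.3% of its 100-base stretches. The 2 genes do not overlap, so reads that match both would not align uniquely. Reads without a unique alignment were not counted in genes, so part of the H2-DMb1 reads may be left uncounted.

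H2-DMa, the alpha chain of the same dimer, was the steadiest member. It lay between 10.48 and 12.3 CPM in the 5 young single-end samples and between 12.01 and 13.8 CPM at 24M. The means of 11.4 ± 0.824 and 12.9 ± 0.825 CPM (SD, n = 5 each) gave a log2 fold change of 0.18 (SE 0.08, edgeR adjusted p = 0.171). At 29M its 11.9 to 13.2 CPM did not overlap the 10.02 to 11.3 CPM of 3M, but the log2 fold change of 0.19 (SE 0.10) was below the fold threshold and had an edgeR adjusted p of 0.347. H2-DMa overlaps Brd2 on the other strand, and 8.43% of its 50-base stretches also occur in Brd2.

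Ciita, the coactivator, had the lowest level per exon length of the members and was not called. It held 1.27, 1.14, 0.883, 0.764 and 0.692 CPM in 3M and 1.25, 0.986, 1.44, 1.02 and 1.18 CPM in 24M, with overlapping groups (log2 fold change 0.31, SE 0.22, edgeR adjusted p = 0.382). In the paired-end libraries it held 2.80, 1.57 and 3.06 CPM at 3M and 2.86, 1.81 and 1.82 CPM at 29M (log2 fold change -0.16, SE 0.29, edgeR adjusted p = 0.828). The sign at 29M turned to 0.02 when 3M replicate 3 was left out. Ciita and Dexi overlap on opposite strands over 25888 bases, and 1.46% of the 50-base stretches of Ciita occur in Dexi. The young mean was 0.951 CPM in single-end and 2.48 CPM in paired-end libraries, a wider gap than between the ages within either experiment. Both young groups are of the same age, so this gap lies between the experiments. Levels at 24M and 29M differ in age and in kind of library, which cannot be told apart.

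**Figure D2:**
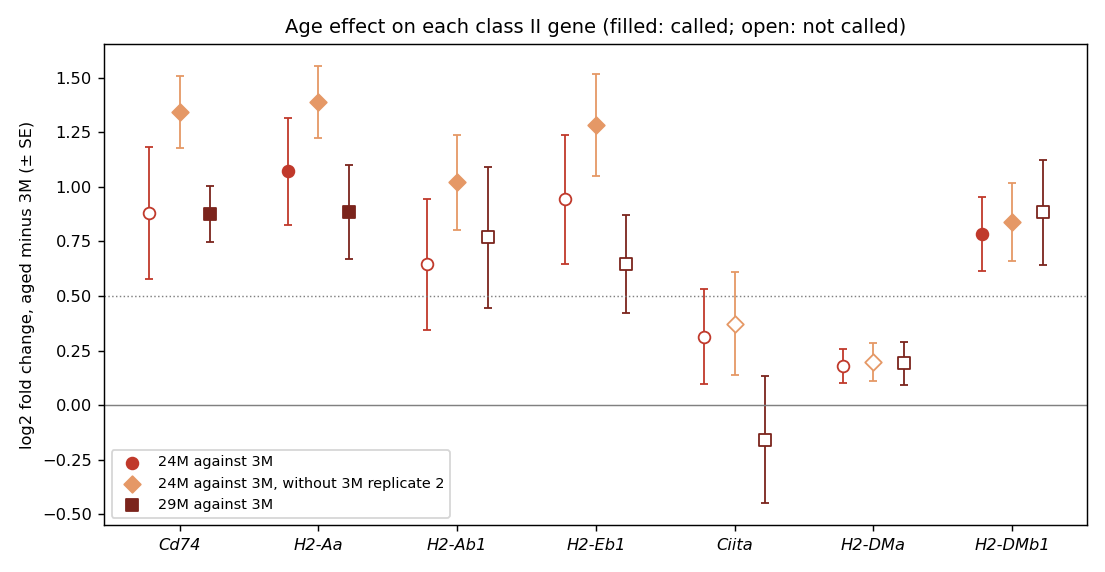
Log2 fold change (y axis, aged minus 3M, ± SE) of each class II gene at 24M, at 24M without 3M replicate 2, and at 29M, with filled symbols for called genes. Cd74 and the 3 chain genes rise from between 0.65 and 1.07 to between 1.02 and 1.39 at 24M without that library, whereas H2-DMb1, H2-DMa and Ciita move by less than 0.1.

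At 24M, 2 of the 7 members (H2-Aa and H2-DMb1) were called higher and none lower by edgeR, against 1.34% of the 15683 genes tested called higher and 0.638% called lower. All 7 log2 fold changes were above 0, as were 49.2% of those of all genes. Their median was 0.78, against 0.00 for all genes tested. For 1 member (H2-DMb1, with 24M replicates 1 and 4 joined) every old sample lay above every young one, which held for 3.15% of all genes. Without 3M replicate 2, 5 members were called higher (Cd74, H2-Aa, H2-Ab1, H2-Eb1 and H2-DMb1), beside 1.44% of the 15806 genes tested in that fit, and without each other sample 0 to 2 were, the lowest without 24M replicate 2, beside 0.576% (that fit) to 2.49% of the genes tested. At 29M, 2 of 7 (Cd74 and H2-Aa) were called higher and none lower, against 1.34% of the 15097 genes tested called higher and 0.113% lower. The median log2 fold change was 0.77, against 0.00 for all genes, and 6 of 7 were above 0 (49.4% of all genes). In 4 members (Cd74, H2-Aa, H2-DMa and H2-DMb1) the groups did not overlap, with every 29M sample higher, which held for 11.9% of all genes. Without 29M replicate 2, the lowest old sample in all members but H2-DMa, 5 members were called higher (Cd74, H2-Aa, H2-Ab1, H2-Eb1 and H2-DMb1), beside 1.35% of the 15292 genes tested in that fit. Without each other library 1 was called, Cd74, beside 0.74% (without 29M replicate 3) to 1.1% (without 3M replicate 2) of the genes tested, and in 1 fit of all 4 groups 0 were.

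The effects at 29M and 24M were compared directly as an interaction in 1 fit of all 4 groups. For Cd74 the 29M effect minus the 24M effect was -0.01 (SE 0.46, 95% normal interval -0.92 to 0.90). For H2-Aa it was -0.19 (-0.98 to 0.60) and for H2-Eb1 -0.31 (-1.23 to 0.62). Ciita had the largest difference at -0.49 (-1.22 to 0.24), and H2-DMa the most tightly bounded at 0.01 (-0.23 to 0.25). H2-Ab1 and H2-DMb1 gave 0.10 and 0.09. No member passed in edgeR (adjusted p of at least 0.658), and none had an unadjusted p under 0.05, while 1674 of the 16055 genes (10.4%) had one and 0 passed after adjustment. DESeq2 also called 0. Without 3M replicate 5 of the single-end experiment 92 of the 15961 genes tested passed in edgeR, and no member did. The intervals leave room for differences of about the size of the effects themselves in the chain genes and Cd74.

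Levels of different genes were compared per length, as CPM per kilobase of exon, with the union of a gene's annotated exons as its length. The order depends on these lengths, 1.679 kb for Cd74 and 3.448 kb for H2-DMa. In plain CPM H2-DMa had the higher mean in both young groups (11.4 against 8.25 CPM single-end, 10.9 against 6.96 CPM paired-end). Cd74 had the higher plain mean at 24M (15.1 against 12.9 CPM) and at 29M (12.7 against 12.4 CPM). Per length, Cd74 was the most abundant member in each of the 4 groups (4.91 ± 3.14, 8.99 ± 2.19, 4.15 ± 0.413 and 7.57 ± 1.02 CPM per kb in young single-end, 24M, young paired-end and 29M samples, SD). H2-DMa came second (3.30, 3.73, 3.15 and 3.61 CPM per kb in the same order) followed by H2-Eb1 (1.49, 2.82, 1.60 and 2.48 CPM per kb). The ranges of Cd74 and H2-DMa overlapped in young single-end samples, and those of H2-DMa and H2-Eb1 at 24M. H2-Ab1, H2-Aa and H2-DMb1 followed at means of 0.811 to 1.82 CPM per kb, and the ranges of these 3 overlapped within each group. Ciita was the lowest member everywhere, at 0.0997 to 0.260 CPM per kb. At 3M, H2-DMa had 0.884 times the per-length level of Cd74 in the median single-end sample, and at 24M 0.411 times. The ranges of 0.338 to 1.03 and 0.331 to 0.585 overlapped, the lowest young value being that of 3M replicate 2.

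Samples that were high in one of the main class II genes tended to be high in the others. In 24M, the joined replicates 1 and 4 or replicate 5 held the highest level and replicate 3 the lowest for each of Cd74, H2-Aa, H2-Ab1 and H2-Eb1. In 29M, replicate 2 was the lowest for all 4, and in the young paired-end samples replicate 1 was the lowest and replicate 3 the highest. These 3 low libraries also had the highest share of reads outside annotated genes in their groups. It was 12.7% in 24M replicate 3 (9.79 to 10.4% in the others), 15.9% in 29M replicate 2 (11.98 and 12.7%) and 12.8% in 3M paired-end replicate 1 (11.45 and 11.5%). In young single-end samples the highest share, 10.2% in replicate 5, did not go with the lowest class II sum. The part of this share in the class II values was not tested. Centred on the mean log2 level of the young group of the same experiment, the mean of these 4 genes was 0.98 in 3M replicate 2, between -0.31 and -0.17 in the other young single-end samples, between 0.41 and 1.21 at 24M and 0.93, 0.22 and 0.87 in the 3 samples of 29M. Outside the members, the 5 genes with the smallest root mean square difference from that mean over all 16 samples, among 14520 genes with a mean of at least 1 CPM, were Xdh (0.232 log2 units), Psmb8 (0.258), H2-D1 (0.259), H2-K1 (0.270) and Fgl2 (0.275). Xdh encodes xanthine dehydrogenase, Psmb8 a subunit of the immunoproteasome, H2-D1 and H2-K1 the classical MHC class I heavy chains, and Fgl2 a fibrinogen-like protein of immune cells. With the members counted in, the 4 genes that make the mean took places 1 to 4 by construction and Xdh place 5. In that order H2-DMb1 stood at place 28, H2-DMa at place 746 and Ciita at place 4048.

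**Figure D3:**
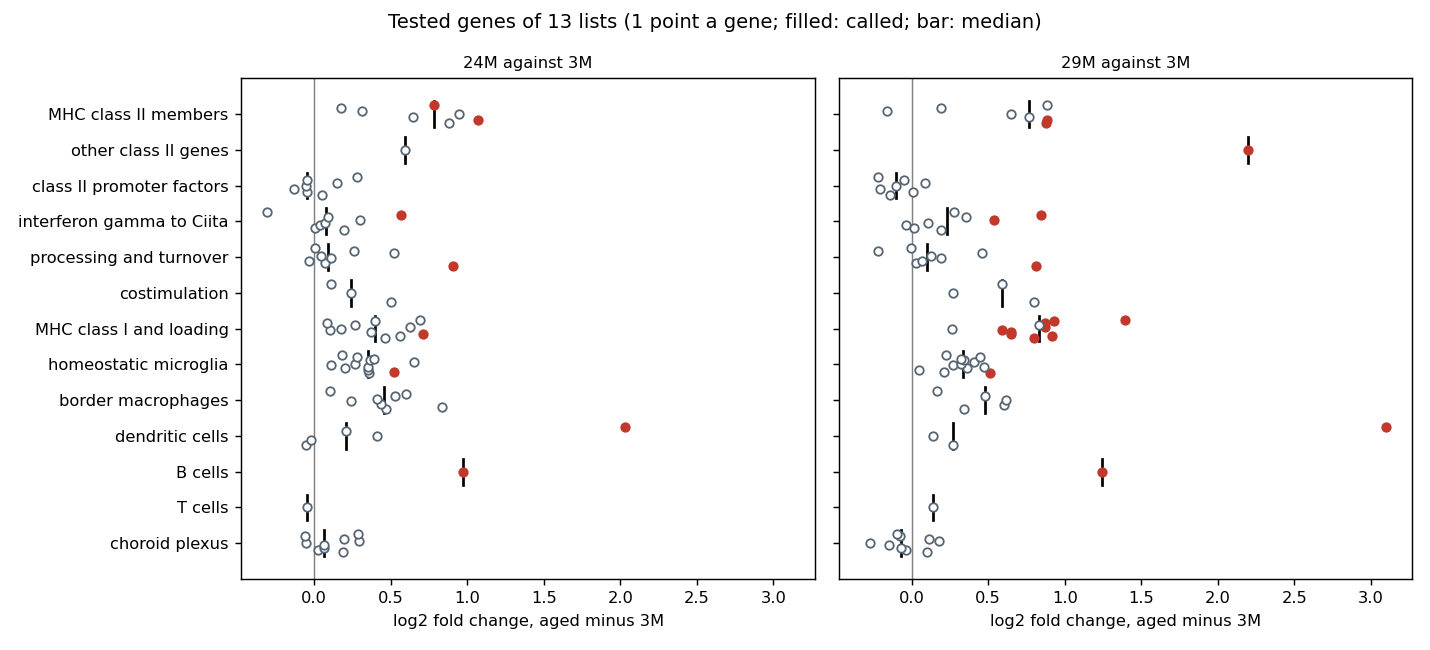
Log2 fold changes (x axes, aged minus 3M) of the tested genes of the class II members and 12 further lists, 1 point a gene, filled where called, with a bar at the median. MHC class II members have medians of 0.78 and 0.77, and class II promoter factors of -0.04 and -0.11.

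Among the remaining class II genes only H2-Ob, the beta chain of H2-DO, passed the low count filter. It had 3 to 5 counts per library at 3M and 16 to 17 counts at 29M (0.297 ± 0.116 and 1.37 ± 0.187 CPM, SD, n = 3), a log2 fold change of 2.20. H2-Ob passed the filter there through the 29M libraries alone (0 of 3 young and 3 of 3 old libraries reached its 0.842 CPM), so it could enter that comparison only by being higher at 29M, and its edgeR call there is given as a description. At 24M the H2-Ob level was 0.939 ± 0.272 CPM against 0.607 ± 0.127 CPM in 3M (SD, n = 5), a log2 fold change of 0.60 (SE 0.26, edgeR adjusted p = 0.166). Its alpha chain partner H2-Oa had 5 to 9 counts a library in 3M and 5 to 14 in 24M, and 2 to 4 in 3M and 6 to 11 in 29M. H2-DMb2 lay between 2 and 7 counts in every library, and H2-Eb2 at 0 or 1.

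None of the 7 genes of the promoter factors (Rfx5, Rfxap, Rfxank, Nfya, Nfyb, Nfyc and Creb1) was called at either age. Their log2 fold changes ran from -0.13 (Rfxank) to 0.28 (Creb1) at 24M and from -0.22 (Creb1) to 0.08 (Nfyb) at 29M. They summed to 187 to 215 CPM in young single-end and 202 to 232 CPM in 24M samples. In the paired-end experiment the sums were 224 to 227 CPM at 3M and 208 to 220 CPM at 29M. On the path from interferon gamma to Ciita, 8 of 9 genes were tested. Irf8, a transcription factor of myeloid cells and B cells, was called higher at both ages (0.57, SE 0.09, edgeR adjusted p = 0.00520 at 24M, and 0.85, SE 0.14, adjusted p = 0.00445 at 29M). Ifng itself had at most 0.0695 CPM in any library and was not tested.

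Of 8 genes for invariant chain processing and class II turnover, Ctss (cathepsin S, the protease that trims the invariant chain) was called higher at both ages. It went from 58.4 ± 6.91 to 109 ± 10.7 CPM at 24M (SD, n = 5; 0.90, SE 0.09, edgeR adjusted p = 0.000109) and from 51.2 ± 1.05 to 90.2 ± 4.03 CPM at 29M (SD, n = 3; 0.82, SE 0.05, edgeR adjusted p = 3.43e-06), without overlap in either experiment. Ctsl, Ctsb, Ctsd, Lgmn, Ifi30, March1 and March8 were not called. For March1, a ubiquitin ligase that takes class II off the surface, the log2 fold change was 0.26 at 24M and -0.22 at 29M. Of 3 tested costimulation genes none was called. For Cd86 the log2 fold change was 0.50 (edgeR adjusted p = 0.0699) at 24M and 0.80 (edgeR adjusted p = 0.0653) at 29M, with no overlap between old and young samples at either age.

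In the class I pathway, which serves CD8+ T cells, 1 of 11 genes was called at 24M (B2m, 0.71, edgeR adjusted p = 0.0220) and 9 of 11 at 29M, all higher, and for none of the called ones did the difference between the ages pass (edgeR adjusted p of at least 0.403). These were H2-K1, H2-D1, B2m, Tap1, Tap2, Psmb8, H2-T23, H2-Q4 and Nlrc5, with log2 fold changes from 0.59 (Tap2) to 1.39 (Nlrc5, the class I counterpart of Ciita). The median over the list was 0.40 at 24M and 0.83 at 29M, beside 0.78 and 0.77 for the class II members. Replicate 2 of the young single-end group was the highest young sample in this list too, at a summed 293 CPM against 164 to 192 CPM in the other 4. Without it 7 of the 11 genes were called at 24M (H2-K1, H2-D1, B2m, Tap1, Psmb8, H2-Q4 and Nlrc5) and the median was 0.76. In every list but this one and the members, leaving it out moved the number called by at most 1.

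**Figure D4:**
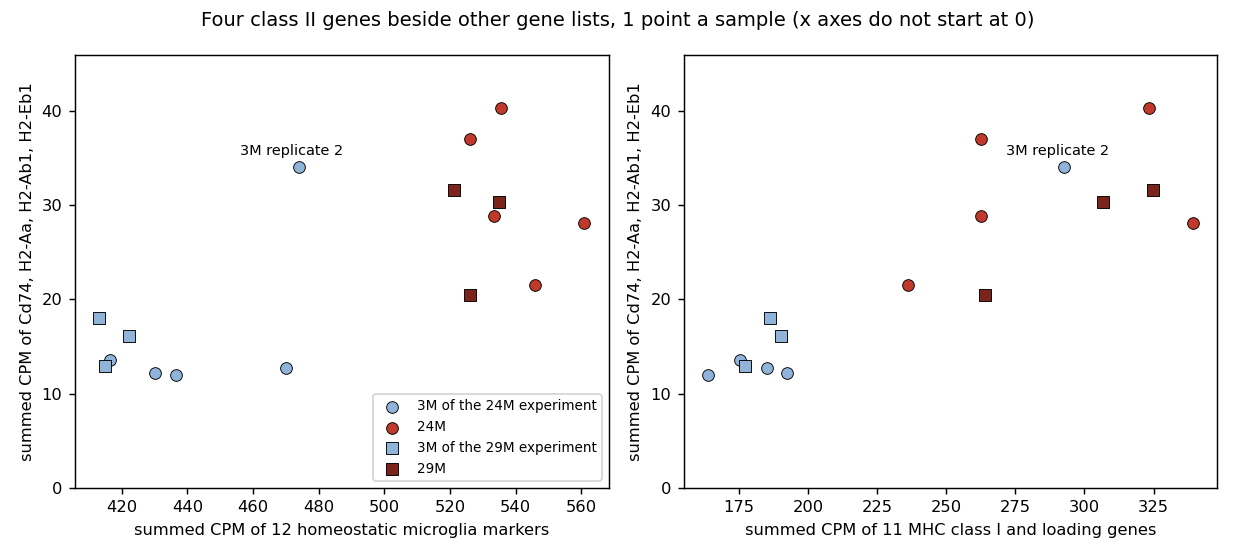
Summed CPM of Cd74, H2-Aa, H2-Ab1 and H2-Eb1 (y axes, from 0) beside the summed CPM of 12 homeostatic microglia markers (left) and of 11 MHC class I and loading genes (right), 1 point a sample. Old samples lie to the right of all young ones on the left panel (521 to 561 against 413 to 474 CPM), and 3M replicate 2 reaches 34.0 CPM on the y axis with 474 CPM of microglia markers.

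Markers of the cells that can carry class II were set beside these values. The summed level of 12 homeostatic microglia markers was 416 to 474 CPM in young single-end samples and 526 to 561 CPM at 24M, and 413 to 422 CPM against 521 to 535 CPM in the paired-end experiment. All 12 log2 fold changes were above 0 at both ages, with medians of 0.35 and 0.33. One gene was called at each age, P2ry12 at 24M (0.52, edgeR adjusted p = 0.0342) and Tmem119 at 29M (0.51, edgeR adjusted p = 0.0183). The other value of each was 0.36 for Tmem119 at 24M and 0.21 for P2ry12 at 29M. As a percentage of this microglia sum, Cd74, H2-Aa, H2-Ab1 and H2-Eb1 together made 3.25, 7.18, 2.73, 2.84 and 2.70% in 3M replicates 1 to 5 and 3.94 to 7.53% at 24M. The corresponding shares were 3.11 to 4.37% in young paired-end samples and 3.89 to 6.07% at 29M, which overlap. The part of microglia number or state in the class II values was not tested.

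Markers of other cells that can carry class II were read in the same way. The 8 markers of border macrophages, the resident phagocytes of meninges and vessels, summed to 23.9 to 32.7 CPM in young and 27.9 to 38.3 CPM in 24M samples, and to 25.7 to 27.96 and 24.2 to 40.7 CPM in the paired-end experiment. None was called (Mrc1 0.47 and 0.34, Cd163 0.83 and 0.60 at 24M and 29M). Among dendritic cell markers Itgax, which activated microglia are also known to express, had 0.350 ± 0.181 CPM in young and 1.45 ± 0.447 CPM in 24M samples (SD, n = 5), and 0.303 ± 0.191 and 2.52 ± 0.527 CPM in the paired-end experiment (SD, n = 3), without overlap. Like H2-Ob, Itgax passed the low count filter through the old libraries (1 of 5 young single-end and 0 of 3 young paired-end libraries reached it, and all old ones did), so its log2 fold changes of 2.03 and 3.10, called at both ages, are a description. Flt3 (-0.05 and 0.27) and Zbtb46 (-0.02 and 0.14) were not called. The 8 dendritic cell markers, Itgax included, summed to 15.7 to 20.9 CPM in young and 17.5 to 22.3 CPM in 24M samples. In the paired-end experiment they summed to 17.1 to 18.6 CPM at 3M and 21.2 to 23.3 CPM at 29M. Of the B cell markers Cd79a, Cd79b, Ms4a1 and Pax5 none exceeded 0.759 CPM in any library, while Ighm, the heavy chain of IgM, rose from 15.3 to 29.9 CPM at 24M (0.97, edgeR adjusted p = 0.00587) and from 12.8 to 31.0 CPM at 29M (1.24, edgeR adjusted p = 0.0125). Cd3d and Cd3e of T cells and Ccr2 and Ly6c2 of monocytes stayed at or below 0.876 CPM. The 8 T cell markers summed to 1.73 to 5.91 CPM in young and 1.86 to 4.19 CPM in 24M samples. In the paired-end experiment they summed to 2.04 to 3.33 CPM at 3M and 3.52 to 3.92 CPM at 29M. The part of these cells in the class II values was not tested.

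Tissue around the hippocampus varied between libraries. The 9 choroid plexus markers summed to 2099 to 8719 CPM in young and 4777 to 7994 CPM in 24M samples, and to 3553 to 6511 and 4219 to 6415 CPM in the paired-end experiment, with none called (Ttr 0.19 and 0.10, Kl 0.03 and -0.04). Of 6 meningeal fibroblast genes Lum (0.85, edgeR adjusted p = 0.0306) and Ogn (0.96, edgeR adjusted p = 0.0226) were called at 24M and none at 29M, and Dcn was not called (0.57 and -0.01). Blood genes summed to 53.3 to 108 CPM in young and 76.3 to 544 CPM in 24M samples, the highest in 24M replicate 2, and Hba-a1 and Alas2 were called at 29M (0.95 and 0.85, edgeR adjusted p = 0.0307 and 0.0478), whereas Hbb-bs and Hbb-bt were not called. Prox1 and Wfs1, genes of hippocampal neurons, were present in all libraries at 89.5 CPM or more, and neither was called. The part of these tissues in the class II values was not tested.

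**Figure D5:**
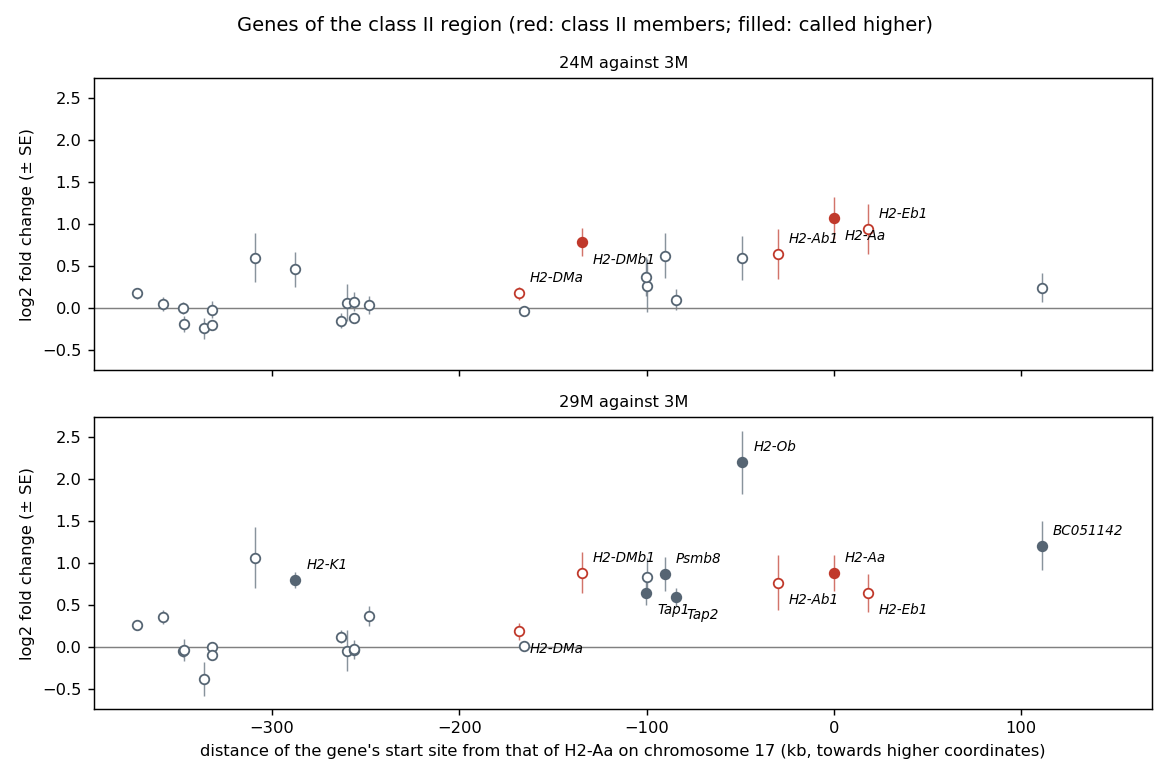
Log2 fold change (y axes, ± SE) of the tested genes of the class II region at 24M and 29M against the distance of each gene's start site from that of H2-Aa (x axis, kb), with class II members in red and called genes filled. Called genes at 29M include H2-Ob at 2.20 and BC051142 at 1.21, while H2-DMa and Brd2 beside it stay at or below 0.19.

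The class II region was read across, from 200 kb below H2-DMa to 200 kb above H2-Eb1 (chr17:33919541-34516674, 59 annotated genes, 26 tested in each comparison). At 24M only the members H2-Aa and H2-DMb1 were called there, and without 3M replicate 2 H2-Ab1, H2-Eb1, H2-K1, Tap1 and Psmb8 as well. At 29M 7 genes were called higher and none lower: H2-Aa, H2-Ob (with the limit given above), H2-K1, Tap1, Tap2, Psmb8 and BC051142 (1.21, SE 0.29, edgeR adjusted p = 0.0421). BC051142, whose promoter window holds the spaced X and Y cores (-67 and -33), had 0.24 at 24M (edgeR adjusted p = 0.455), and the difference between the ages did not pass (0.97, edgeR adjusted p = 0.392). The median log2 fold change of the region was 0.14 at 24M and 0.36 at 29M, and 0.06 and 0.26 over the 21 genes that are not members. Without 3M replicate 2 the medians at 24M were 0.20 and 0.06. Brd2, which overlaps H2-DMa, had -0.03 and 0.01, and Rps18 (-0.02 and 0.01) and Pfdn6 (0.01 and -0.05), at the lower end of the region, were close to 0 as well. Other genes at that end were further from 0 though not called. Rgl2 had 0.06 and 0.36 and Tapbp 0.18 and 0.26 (edgeR adjusted p = 0.0426 and 0.0350 at 29M, below the fold threshold). H2-K2 had 0.60 and 1.07, B3galt4 -0.24 and -0.37, Wdr46 -0.19 and -0.03, and Vps52 -0.20 and -0.09.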

How the data were processed

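PolyA RNA of hand-dissected mouse hippocampus was sequenced after TruSeq library preparation, in single-end and in paired-end libraries. Per the submitters' processing notes, base calls came from CASAVA and reads were aligned with STAR 2.3.0 to GRCm38.p2. The authors counted reads per Ensembl gene with HTSeq (intersection-nonempty mode) and deposited 1 table of raw counts per library, the only unit used. The annotation release and strand setting of the counting are not given in the sources used here, so reads of overlapping genes on opposite strands may not be told apart.

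Symbols were taken from GENCODE M21 (36602 of 38355 identifiers named). Counts were filtered by filterByExpr, scaled by TMM and tested with edgeR 4.0.16 (R 4.3.3), 24M against single-end 3M and 29M against paired-end 3M, with p-values adjusted over all genes tested. SE is the log2 fold change divided by the square root of the F statistic. Replicates 1 and 4 of 24M (variance ratio 0.406 where counting noise gives about 1, next lowest of 136 pairs 1.23) were averaged and rounded into 1 sample. The fit was tested on simulated data: with 200 genes changed by 2 log2 units it recovered 200 of them at 24M with 7 false calls, and 199 at 29M with 5. The changed genes had a mean above 2 CPM, the simulated spread was capped, and the change was larger than that of any member. This recovery therefore does not tell how often effects of the members' size would be called. The members and gene lists were chosen with earlier results of these data known. Named are all members, each called gene of the lists and of the class II region, the first 2 markers of each cell type, and the 5 genes most like the mean of 4 members. Some genes that this rule or the lists hold are not reported here. Gbp4, Cd52 and the other genes of 3M replicate 2 were named after their values were seen, as were motif letters. Promoter sequences are RefSeq's on GRCm38.p6. DESeq2 1.42.0, other scalings and filters, 1 fit of all groups, a replicate block, unmerged 24M libraries and leaving out each sample were the alternatives. Replicate numbers come from the labels. Exonic lengths are unions of GENCODE exons.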

Additional observations from a re-analysis of the deposited data

Results flagged for a closer look

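In groups of 5 samples, a sample was singled out when its gap to the nearest other, divided by the group's range, exceeded Dixon's critical value of 0.71, which chance alone gives in about 1 of 20 groups. All of the young single-end cases concern 3M replicate 2. Its Cd74 level of 17.7 CPM faced 6.37 CPM in the next sample (gap 0.943 of the range), H2-Ab1 4.94 against 2.09 CPM (0.874), H2-Eb1 5.46 against 2.39 CPM (0.874) and H2-Aa 5.97 against 3.14 CPM (0.743). The sum of these 4 genes was 34.0 against 13.6 CPM (0.927), their share of the microglia marker sum 7.18 against 3.25% (0.876), and the sum of 11 class I and loading genes 293 against 192 CPM (0.78). H2-DMa, H2-DMb1 and Ciita were not singled out in that sample. In 24M, the summed blood genes of replicate 2 stood at 544 CPM against 159 CPM in the next sample (0.822), and that sample's class II levels lay within the range of the other 24M samples except that its Ciita level of 0.986 CPM was the lowest of the group.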

How the results depend on the processing

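At 24M, 2 members were called in edgeR, 2 with DESeq2 size factors or a filter of at least 1 CPM, 3 (with H2-Eb1) in DESeq2 or with no filter on low counts, 4 in 1 fit of all 4 groups and 4 with the 24M libraries kept apart, in both cases Cd74, H2-Aa, H2-Eb1 and H2-DMb1. Over all genes, 210 of 15683 tested were called higher in edgeR, 209 of 15683 with DESeq2 size factors and 187 of 14467 with at least 1 CPM. DESeq2 called 246 of 15683 higher, and 265 of 26441 were with no filter. In 1 fit of all 4 groups 345 of 16055 were, and 313 of 15749 with the libraries kept apart. The last setting counts 2 libraries that differ by less than counting noise as 2 samples. Leaving out 1 sample gave 0 to 5. The highest, 5, came without 3M replicate 2, the lowest, 0, without 24M replicate 2, where the edgeR adjusted p of H2-Aa was 0.0711 and that of H2-DMb1 0.0614. At 29M, 2 were called, 1 (Cd74) in DESeq2, 5 with no filter on low counts, 0 in 1 fit of all 4 groups (edgeR adjusted p = 0.456 for Cd74), and 1 to 5 with 1 library left out. Over all genes, 202 of 15097 were called higher at 29M in edgeR and 147 of 15097 in DESeq2. With no filter 368 of 24470 were, and in 1 fit of all 4 groups 83 of 16055. Leaving out 3M replicate 2, an alternative chosen for the lists after seeing the data, moved the class I and loading genes called at 24M from 1 to 7, and the genes of the class II region from 2 to 7. The cause of these changes was not tested, except that fewer samples or other gene sets enter by construction. No alternative called a difference between the ages for a member, 0 members under all 22 of them. Over all genes 0 were called in the main fit. Without 3M replicate 5 of the single-end experiment 3 genes were called higher and 54 lower, and 0 were called under each other alternative. Over the 2 age comparisons the log2 fold changes kept their sign under each alternative but for Ciita at 29M (0.016 without 3M replicate 3, and from -0.44 to 0.016 over the libraries left out). The difference between ages turned sign for H2-DMa, Cd74, H2-Ab1 and H2-DMb1, whose values in the report are 0.10 or less in size: H2-DMa -0.0065 with the 24M libraries kept apart, and with 1 sample left out Cd74 from -0.48 to 0.12, H2-Ab1 from -0.28 to 0.41, H2-DMa from -0.050 to 0.038 and H2-DMb1 from -0.15 to 0.22.

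The replicate numbers gave no clear sign of pairing the samples: deviations from the group means correlated at -0.12, 0.06, 0.01 and -0.21 for numbers 1, 2, 3 and 5 at 24M, and at -0.13, -0.09 and 0.13 for numbers 1 to 3 at 29M. So few correlations cannot exclude pairing. In the block fit at 24M the joined sample took number 1, so 3M replicate 4 and 24M replicate 6 had no partner. The block also leaves fewer degrees of freedom. With the replicate number as a block, 0 members were called at 24M (H2-Aa adjusted p = 0.0932), 1 (Cd74) at 29M and 0 in the difference, and the genes called over all genes went from 310 to 83 at 24M and from 219 to 225 at 29M. Depth limits Ciita, H2-DMb1 and H2-Ob, with few counts a library, most.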
